A study of Mus musculus with 12 samples.

Results

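The 10 genes described here mark macrophages and Kupffer cells, the resident macrophages of the liver: Csf1r, Cd68, Marco, Vsig4, Clec4f, Cd5l, Timd4, Mrc1, Cd163 and Spic. The rule that picks them uses the gene symbol and no measured value, although the list was drawn up with earlier results of these data known, and all 10 were found among the 30743 gene symbols of the deposited table. The RNA came from whole livers of C57BL/6J male fetuses at 15 ± 0.5 dpc, 6 from dams on a control diet with 13.5 kcal% fat and 6 from dams on a high-fat diet (HFD) with 60 kcal% fat, both fed for 12 to 14 weeks. The labels give no genotype beyond the strain and do not say which fetuses were littermates. The study asked how maternal HFD and obesity change the blood-forming fetal liver. The value used here is the authors' average log2 CPM (counts per 1e6 reads) of each gene over the 12 livers. No value of any single liver entered the description, so no level below has an SD, and nothing is said of the difference between the diets.

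Fetal liver is the main site of blood formation in the mouse embryo at this age. Its macrophages arise from early yolk sac and fetal precursors, depend on signaling through the receptor CSF1R, and sit at the center of erythroblastic islands, where they attach to maturing red cells and engulf the nuclei these cells expel. Some of them persist as Kupffer cells, which line the sinusoids and clear particles, dying cells and complement-coated microbes from blood. In RNA of a whole organ, fewer cells of a type and less RNA per cell cannot be told apart.

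The 10 genes fell into 5 that were well detected (Cd5l, Marco, Mrc1, Timd4 and Clec4f, each above 10 CPM), Vsig4 at about 2.08 CPM, and 4 under 1 CPM (Csf1r, Spic, Cd68 and Cd163). Together they took 126050 reads, or 800.0 CPM, and 91.3% of that level came from Cd5l, Marco and Mrc1. The well-detected genes encode receptors and secreted proteins that bind particles, lipids and dying cells. The 4 genes under 1 CPM encode the growth factor receptor of the lineage, a pan-macrophage lysosomal protein, a transcription factor and a scavenger receptor. The last, Cd163, was the lowest of the 10, and Vsig4 also encodes an uptake receptor, so the levels as listed did not sort by role. Why the low values are low was not tested.

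Levels between genes are compared per length, as CPM per kilobase (kb) of annotated exon. The table also shows how many reads stand behind each mean. Genes with no read share 1 lowest average log2 CPM, -2.71, because edgeR adds a prior count before taking logarithms, and the values just above it lie at whole reads. Of 5453 gene symbols with 1 to 20 reads, 99.8% lay within 0.2 of a whole number of reads summed over the livers. On this scale the mean effective library held 13129752 reads and all 12 held 157557021 (normalized sizes), and 1 read was worth 0.00635 CPM. The 95% intervals given below treat the recovered reads as counts (Clopper-Pearson for CPM, Poisson for reads). They cover counting error only, not the spread between livers or the error of recovering reads from the averages.

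Cd5l encodes a secreted scavenger protein (also known as AIM) that macrophages release into blood. On GRCm38, the assembly of mm10, the gene spans chromosome 3 from 87357881 to 87371073 (plus strand). Its level was 385 CPM (95% interval 382 to 388) from 60700 reads, or 189 CPM per kb of exon. That was the highest of the 10 and stood at percentile 98.8 of the 17233 gene symbols with reads and a length.

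Marco encodes a class A scavenger receptor that binds bacteria and particles. The gene spans chromosome 1 from 120474538 to 120505024 on the minus strand. With 32742 reads it stood at 208 CPM, or 108 CPM per kb, which is percentile 97.6. Cd5l was 1.75-fold higher than Marco per kb.

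Mrc1 encodes the mannose receptor CD206, which sinusoidal endothelial cells of the liver make as well as macrophages. Its span on chromosome 2 runs from 14229392 to 14332057 on the plus strand, with 29 exon blocks and 6371 bases of exon. It took 21633 reads and 137 CPM, but only 21.6 CPM per kb because of its long transcript (percentile 88.7). Marco was 5.01-fold higher per kb.

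The sequences before these 3 genes are shown because the genes carried most of the level of the list. Each is the RefSeq promoter window on GRCm38.p6, 250 bases before to 50 after the annotated start, written 5′ to 3′ along the gene. Capitals mark GAGGAA on either strand, the core of the sites bound by the macrophage factor PU.1 and its relative SPI-C. Cd5l is at chr3:87357631-87357930 (+), Marco at chr1:120504975-120505274 (-) and Mrc1 at chr2:14229164-14229463 (+).
Cd5l: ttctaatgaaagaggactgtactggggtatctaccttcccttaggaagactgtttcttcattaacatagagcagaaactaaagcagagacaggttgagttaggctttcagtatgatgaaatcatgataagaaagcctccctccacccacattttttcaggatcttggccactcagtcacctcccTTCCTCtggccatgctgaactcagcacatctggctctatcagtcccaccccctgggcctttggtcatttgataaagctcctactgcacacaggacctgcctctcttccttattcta
Marco: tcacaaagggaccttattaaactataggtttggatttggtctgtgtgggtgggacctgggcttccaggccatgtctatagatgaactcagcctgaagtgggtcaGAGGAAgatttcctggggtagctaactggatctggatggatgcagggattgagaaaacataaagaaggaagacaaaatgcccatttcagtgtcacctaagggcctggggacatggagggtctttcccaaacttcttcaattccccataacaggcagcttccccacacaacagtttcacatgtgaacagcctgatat
Mrc1: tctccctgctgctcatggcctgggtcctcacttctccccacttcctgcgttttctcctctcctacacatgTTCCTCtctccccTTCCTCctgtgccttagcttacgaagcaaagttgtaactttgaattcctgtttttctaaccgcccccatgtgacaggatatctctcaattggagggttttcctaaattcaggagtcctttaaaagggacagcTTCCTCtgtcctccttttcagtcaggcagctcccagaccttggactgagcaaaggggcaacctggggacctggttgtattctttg

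Promoter windows of 9 of the 10 genes (all but Csf1r) were searched on both strands for 4 motifs. Csf1r was left out by its chromosome, 18, so the counts below do not cover it. GAGGAA stood in 5 of the 9 (Cd5l, Cd68, Marco, Mrc1 and Vsig4), against 28.3% of all 32851 RefSeq promoter windows given for the mouse. It occurred 3 times in Mrc1 and once in each of Cd5l and Marco. The AP-1 site TGANTCA and the C/EBP site TTGCNNAA each stood in Cd68 alone of the 9, against 7.81% and 10.8% of all windows, and the TATA box TATAAA in none of the 9, against 13.6%. Windows with GAGGAA belonged to genes of high level (Cd5l) and of low level (Cd68). Windows without it likewise belonged to both kinds, Timd4 and Clec4f on one side and Spic and Cd163 on the other.

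Timd4 encodes TIM-4, a receptor for phosphatidylserine on dying cells, known as a marker of resident Kupffer cells of embryonic origin. The locus is on chromosome 11 from 46810800 to 46844332 on the plus strand. It took 6628 reads and 42.1 CPM, or 19.4 CPM per kb (percentile 87.8). Mrc1 was 1.11-fold higher per kb of exon, but the order of this pair turned when coding length was used in place of exon length, so their order depends on the length chosen.

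Clec4f encodes a C-type lectin that in the mouse is known for its restriction to Kupffer cells. Its locus is on chromosome 6 from 83644542 to 83656187 on the minus strand. Its level was 24.8 CPM from 3908 reads, or 10.0 CPM per kb (percentile 81.8), and Timd4 was 1.93-fold higher. This most specific Kupffer marker of the list was thus detected with about 326 reads in the mean liver.

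Vsig4 encodes CRIg, the receptor of Kupffer cells for complement C3 fragments. The gene runs on chromosome X from 96247203 to 96293438 on the minus strand. Its level was 2.08 CPM (95% interval 1.86 to 2.31) from 327 reads, or 1.40 CPM per kb, which is percentile 63.0. Clec4f was 7.18-fold higher per kb. C3, the protein whose fragments CRIg binds, is made by hepatocytes and stood at 4362 CPM.

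**Figure D1:**
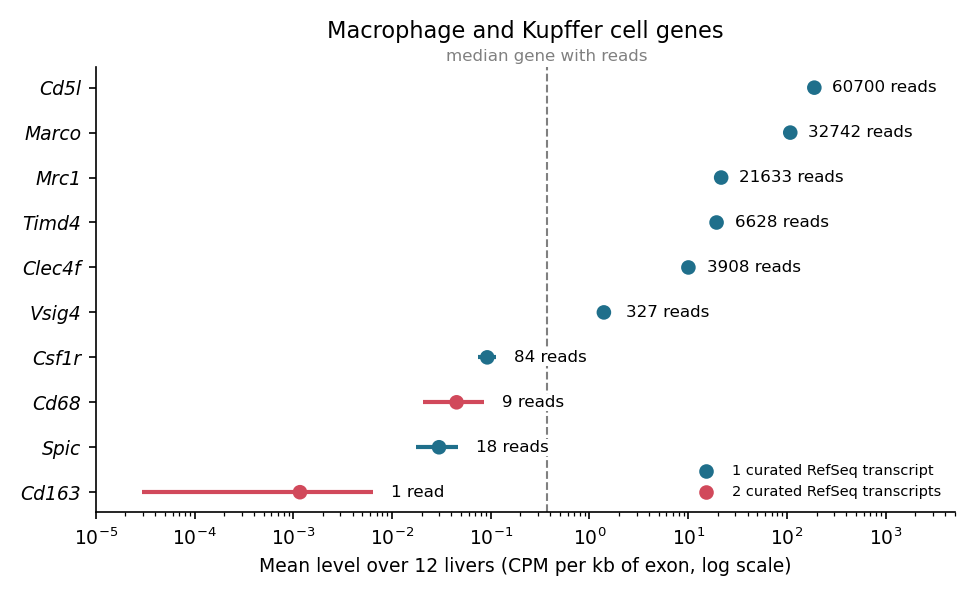
Mean level of the 10 macrophage and Kupffer cell genes over 12 livers, in CPM per kb of exon on a log axis, with the total reads of each gene; bars are 95% counting intervals and the dashed line is the median of all genes with reads (0.372 CPM per kb). In all, 6 genes lie right of the line, from Vsig4 at 1.40 to Cd5l at 189, and 4 lie left of it; colors give the number of curated RefSeq transcripts.

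Csf1r encodes the receptor of the growth factors CSF1 and IL-34, on which most macrophages depend. The gene spans chromosome 18 from 61100598 to 61132149 on the plus strand. In the table it held 84 reads over all 12 livers, or 0.532 CPM (95% interval 0.425 to 0.660). Per kb that was 0.0921 CPM at percentile 34.0, and Vsig4 was 15.2-fold higher. Csf1r was also the only one of the 10 genes whose exons overlap those of another gene (Hmgxb3, over 15.1% of its exon bases).

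Spic encodes the transcription factor SPI-C, which heme induces in iron-recycling macrophages. Its locus is on chromosome 10 from 88674772 to 88685015 on the minus strand. It held 18 reads (95% interval 10.7 to 28.4), or 0.115 CPM and 0.0299 CPM per kb.

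Cd68 encodes a glycosylated lysosomal protein in general use as a macrophage marker. The locus is on chromosome 11 from 69664213 to 69666153 on the minus strand. It held 9 reads (95% interval 4.12 to 17.1), or 0.0567 CPM and 0.0451 CPM per kb. The counting intervals of Cd68 per kb (0.0208 to 0.0862) overlapped those of Spic (0.0176 to 0.0470) and of Csf1r (0.0736 to 0.114). Such overlap is not a test of their order, and none was run. Csf1r stayed above Cd68 and Spic with each length used and by CPM, whereas Cd68 and Spic changed places.

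Cd163 encodes the scavenger receptor for hemoglobin bound to haptoglobin. The gene spans chromosome 6 from 124304656 to 124330527 on the plus strand. It held a single read in all 12 livers, with a 95% interval from 0.0253 to 5.57 reads, and stood at percentile 1.16. Haptoglobin (Hp), the plasma protein that carries its cargo, stood at 161 CPM.

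**Figure D2:**
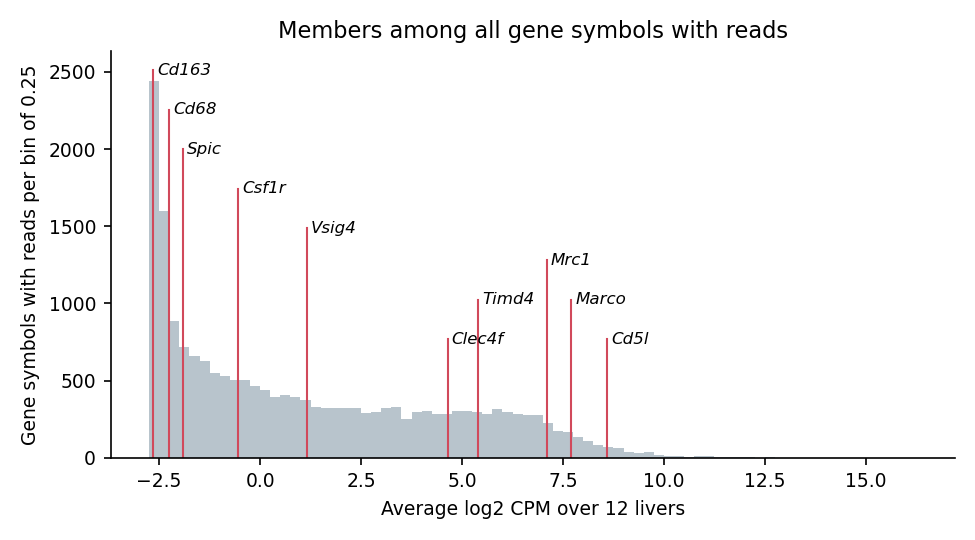
Distribution of the average log2 CPM of the 19652 gene symbols with reads (gray, bins of 0.25) with the 10 genes marked in red. Cd163, Cd68 and Spic lie in the left-hand peak of genes with few reads, and Cd5l, Marco and Mrc1 lie in the right-hand tail above 7.

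The genes of low level share one feature of annotation in part. Cd68 and Cd163 each have 2 curated RefSeq transcripts (accessions of the NM or NR series), and the other 8 genes have 1. Across the 12143 protein-coding genes of the table with 1 curated transcript, 32.4% were above 10 CPM. Among the 8083 with 2 or more, 16.0% were, and the upper quartile of level was 3.51 CPM against 24.5 CPM. The medians lay closer together, at 0.392 CPM against 0.630 CPM, so the gap was mainly one of the upper part of the range. Gapdh and Actb, an enzyme of glycolysis and an actin that every cell uses, were looked up after other values had been seen. Gapdh has 2 curated transcripts and stood at 5.05 CPM, and Actb, with 1, stood at 2581 CPM. Csf1r and Spic, also of low level, have 1 curated transcript in this release. In GENCODE M21 they have 6 and 4 transcripts, and Cd68 and Cd163 have 3 each. Marco, Mrc1, Clec4f and Vsig4 have 2 each there, and Cd5l and Timd4 have 1. Levels over all genes by GENCODE number were not computed. How the authors assigned reads to genes with several transcripts is not given in the sources used here, and its part in the low values was not tested. The 84, 18, 9 and 1 reads of Csf1r, Spic, Cd68 and Cd163 are levels in this table and do not show that the genes were silent.

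**Figure D3:**
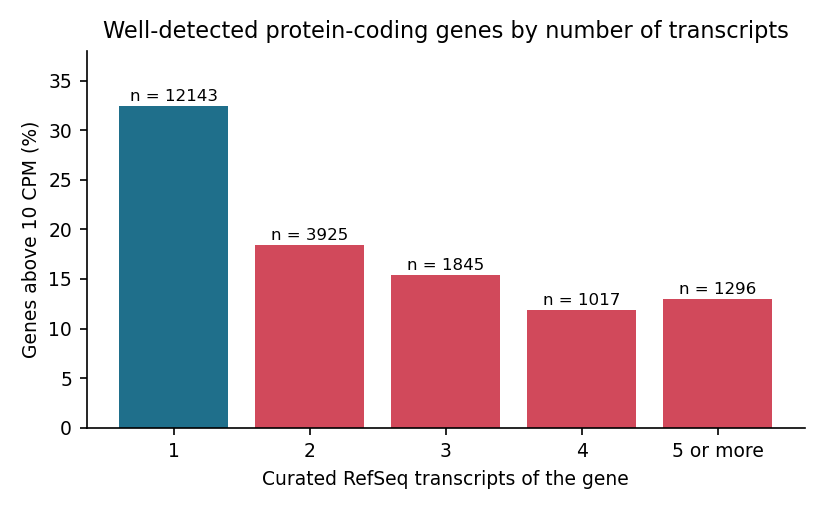
Share of protein-coding genes above 10 CPM (percent, vertical axis from 0) by the number of curated RefSeq transcripts of the gene, with the number of genes over each bar. The share is 32.4% for genes with 1 transcript and lies between 11.9% and 18.4% for the classes with more.

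Other macrophage markers showed the same mixture. Of 17 such genes, 10 were above 10 CPM, and 2 are listed at 0: Ctss, a lysosomal protease, and Adgre1, a standard surface marker of mouse macrophages, which the table lists under its older symbol Emr1. A count of 0 over all libraries allows up to 3 assigned reads, or 0.0190 CPM, which covers counting error in this table and sets no limit on expression, since how reads were assigned to genes was not tested. Of the 12 with 1 curated transcript, 9 were above 10 CPM, against 1 of the 5 with more. Lyz2 (lysozyme, also made by granulocytes) was highest at 333 CPM per kb, 1.76-fold above Cd5l. The 3 chains of the complement protein C1q, a product of macrophages, lay close together at 79.3 (C1qa), 134 (C1qb) and 62.8 (C1qc) CPM per kb, next to Marco at 108. The lowest with reads was Aif1, with 3. The median over the 15 with reads was 10.2 CPM per kb, above the 5.72 of the 10 genes, but over all 17 it was 4.89, below it, so the order of the lists depends on how genes without reads are treated. The median of all genes with reads and a length was 0.372.

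Of the 7 genes of the CSF1 receptor axis, Tyrobp, a signaling adaptor, was highest at 121 CPM per kb, followed by Spi1, the gene of PU.1 (listed as Sfpi1), at 20.2. The median of the 6 with reads was 0.796 CPM per kb, and 0.0921 with the gene listed at 0 counted. Csf1 and Il34, the 2 ligands of CSF1R, held 39 reads and 1 read, and Cbl, a ubiquitin ligase that ends receptor signaling, held none in the table. Csf1 and Il34 have 3 and 2 curated transcripts, but Cbl has 1, and Spi1, at 54.4 CPM, has 3. In this list the median was 0.532 CPM for the 3 genes with 1 curated transcript and 2.31 CPM for the 4 with more. Among 11 transcription factors of Kupffer cells, 7 were above 10 CPM. Rxra was highest at 37.5 CPM per kb, and Rbpj, the nuclear partner of Notch, was lowest at 0.0275, next to Spic at 0.0299.

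Signals that Kupffer cells are known to receive from neighboring cells were present in part. Tgfb1 was highest of the 7 at 29.9 CPM per kb, and Il34 was lowest, with the 1 read given above. The median of the 7 was 1.48 CPM per kb, and 3 of them were above 10 CPM.

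Of 11 scavenger genes, 7 were above 10 CPM, with Cd5l the highest and Cd163 the lowest. Genes for the uptake of dying cells and expelled nuclei included Timd4, the highest of the 10 at 19.4 CPM per kb, and Tyro3, a receptor tyrosine kinase, the lowest with 18 reads. Gas6 and Pros1, which bridge phosphatidylserine to receptors of the Tyro3 family, stood at 10.3 and 12.6 CPM per kb.

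None of 7 complement receptors was above 10 CPM. Of these, 2 have 1 curated transcript and 5 have more. Over all protein-coding genes, 32.4% of those with 1 and 16.0% of those with 2 or more were above 10 CPM. Why the levels of these receptors were low was not tested. C3ar1 was the highest at 1.70 CPM per kb, just above Vsig4 at 1.40, and C5ar1 was the lowest with 1 read. Among 10 C-type lectins, Mrc1 was highest and Clec4f second, while Clec4d, Clec4e and Cd209a are listed at 0 and Clec10a, the lowest of those with reads, held 9.

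Of 13 genes of the erythroblastic island and of heme and iron handling, 10 were above 10 CPM, and Siglec1, Spic and Cd163 were not. Fth1, the ferritin heavy chain, was highest at 923 CPM per kb, and Cd163 was lowest. The median of the 13 was 40.1 CPM per kb. Erythroid cells and hepatocytes also make ferritin, so these levels are not those of macrophages alone.

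Markers of other cells in the same livers place the macrophage genes on a common scale. The median was taken over markers with reads and a matched exon length. It was 2184 CPM per kb for hepatocytes, 282 for erythroid cells, 129 for megakaryocytes and 113 for granulocytes. It was 7.84 for sinusoidal endothelium, 6.32 for stellate and mesenchymal cells and 5.72 for the 10 macrophage and Kupffer genes. It was 3.58 for the B lineage, 1.67 for monocytes and dendritic cells and 0.0137 for mast cells and basophils, lists of few genes. The mast cell and basophil median is that of Ms4a2, with 6 reads, the middle of 3 genes, and Cpa3 of that list stood at 5.35. The megakaryocyte and the stellate and mesenchymal lists are short as well, with 4 genes each. The erythroid median leaves out Hbb-b1, at 24904 CPM, which has no matched exon length, and Hba-a1, which was not found. Some genes stand in more than 1 list: without those, the median was 36.8 for sinusoidal endothelium and 36.5 for the other macrophage markers, and none of the 10 genes was left. These medians describe the lists as written and do not give numbers of cells. Mrc1 has a further source in the endothelium. Lyve1, of the sinusoidal endothelial list, stood at 51.6 CPM per kb, 2.40-fold above Mrc1. How much of the level of Mrc1 or of Lyve1 came from endothelium or from macrophages was not tested.

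**Figure D4:**
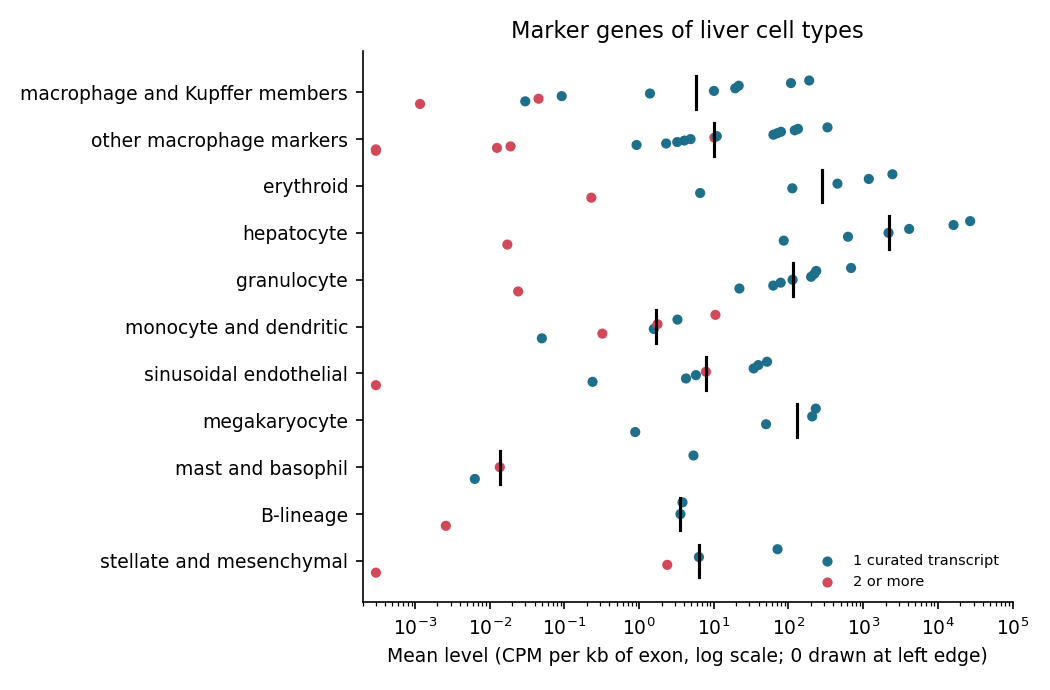
Level of each marker gene in CPM per kb of exon on a log axis, by cell type, with genes of 1 curated RefSeq transcript in blue and those of 2 or more in red; black bars are medians of genes with reads; genes without reads are drawn at the left edge, and Hbb-b1, with no matched exon length, is not drawn. In the hepatocyte, granulocyte and erythroid rows the single red gene is the lowest point, and in the top row Cd163 is the lowest.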

How the data were processed

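PolyA-selected RNA of whole fetal livers, 6 per diet group, was sequenced. The authors trimmed and aligned the reads to mm10 (cutadapt 1.2.1 and Subread 1.3.6-p1, per the submitters' processing notes) and used edgeR. Genes were annotated with biomaRt. The read counter, the release of the gene models and the normalization are not given in the sources used here. The deposited table gives an average log2 CPM over all libraries, in 2 columns that hold equal values. The other columns hold the authors' own comparison of the diets (fold changes, p-values and adjusted p-values) and were not used. The planned edgeR test of the diets was not run, because it needs a value for every liver.

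The lowest value of the average log2 CPM was subtracted on the linear scale to give CPM, and turned into reads with a prior count of 2. The recovery of reads was tried on simulated data made with the same prior count. That trial covers the calculation and cannot test whether the authors used this prior. Exon lengths and positions came from GENCODE M21 (GRCm38, the assembly of mm10), with 22770 symbols matched to 1 gene, and transcript numbers from RefSeq on GRCm38.p6, with 22995 symbols matched by symbol or a unique synonym. Percentiles are among symbols with reads. Both annotations are later than the study. The genes and lists were chosen with earlier results of these data known. Genes named beside the 10 were the highest and lowest with reads of the lists by role, those without reads, ligands, cargo and standard markers. Groups came from the diet labels. Computations ran in Python 3.11.15 (pandas 2.3.3, numpy 2.4.6, matplotlib 3.10.9, scipy 1.17.1).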

Additional observations from a re-analysis of the deposited data

How the results depend on the processing

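The median level of the 10 genes was 5.72 CPM per kb of exon, 5.74 with the longest transcript as length and 8.78 with coding length. Without Cd5l, the highest gene, it was 1.40. The summed level of 800.0 CPM was 802 when the lowest value was not subtracted, within its counting interval. The median percentile was 72.4 among genes with reads, 48.8 among genes above 1 CPM and 79.1 among all rows. Of the 10 places in the order per kb of exon, 8 were kept with the longest transcript, 6 with coding length and 8 by CPM without length: Cd68 and Spic changed places in all 3 of these, and Mrc1 and Timd4 with coding length. With a prior count of 1 or 0.25, the lowest step of the table would be a fraction of a read. Leaving out genes that other lists hold left no member. The planned edgeR, DESeq2 and limma fits, filters, scalings and left-out livers were not run, since they need a value for every liver. No paired analysis was possible because the columns carry no single livers. The counting precision of Csf1r, Spic, Cd68 and Cd163 is limited by their 84 reads or fewer in all, and why these reads are few was not tested.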

Other observations

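Some genes that mark other cells of the fetal liver also held few reads. Among the 118 list genes outside the 10, those with 1 curated RefSeq transcript were above 10 CPM in 55 of 71 cases (77.5%). Those with 2 or more were in 16 of 47 (34.0%). Over all protein-coding genes of the table the shares were 32.4% and 16.0%. Not every list showed this gap. In CPM, the median for 1 curated transcript and for more was 105 and 690 in the erythroblastic island and heme iron list. It was 9.71 and 15.0 for monocytes and dendritic cells, 40.3 and 41.1 for Kupffer transcription factors and 0.532 and 2.31 for the CSF1 receptor axis. In every other list with genes of both kinds, the median was higher for genes with 1 curated transcript. S100a9, whose protein pairs with that of S100a8 in neutrophils, held 2 reads, against 75258 reads of S100a8. Alas2, which starts heme synthesis in red cells, held 87 reads, against 109045 for the erythroid factor Klf1. Pecam1 and Pdgfrb, markers of endothelium and of mesenchymal cells, are listed at 0. These genes have 2 to 4 curated transcripts each, and S100a8 and Klf1 have 1. Exceptions exist on both sides: Fth1 (2 curated transcripts) stood at 3202 CPM and Folr2, a macrophage folate receptor (3), at 15.7 CPM. Mcpt8 (1) held 1 read, and Cbl, Clec4e and Cd209a, with 1 curated transcript each, are listed at 0. Of the list genes outside the 10 that are listed at 0, 3 have 1 curated transcript and 5 have more. All of these were picked after their values were seen, and how reads were assigned among transcripts was not tested.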
